A study of Rattus norvegicus with 24 samples.

Results

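The genes described here are 10 genes of the ATF4 branch of the integrated stress response and of serine synthesis, namely Atf4, Asns, Ddit3, Gdf15, Trib3, Atf3, Psat1, Phgdh, Psph and Mthfd2. They were chosen by gene symbol in the array annotation, with earlier results of these data known, and all 10 were found among the 22093 genes of the array. Each symbol had 1 transcript cluster, the array's unit for a gene. Liver RNA came from male Wistar rats of the RccHan stock, 7-8 weeks old, which received chow with 400 ppm rotenone or untreated chow for 1, 3 or 14 days. Rotenone is a plant compound that blocks complex I of the mitochondrial respiratory chain. Arrays were run for 4 livers in each of the 6 groups, 24 in all, with 1 array per rat. Because the compound was in freely available food, an effect of rotenone and an effect of any difference in the amount eaten cannot be told apart. The rats were housed together in small groups, and the cage of each rat is not given in the sources used here.

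In the integrated stress response, kinases that sense stalled mitochondria, unfolded protein, missing amino acids or double-stranded RNA phosphorylate the translation factor eIF2. General protein synthesis then slows, while the mRNA of the transcription factor ATF4 is translated more, so that ATF4 activity is set largely at the protein level, which an array of RNA does not measure. ATF4 activates genes of amino acid uptake, asparagine and serine synthesis, tRNA charging and mitochondrial folate metabolism, and in muscle and cultured cells a block of the respiratory chain is a well known trigger of this programme. Serine is made from the glycolytic intermediate 3-phosphoglycerate by PHGDH, PSAT1 and PSPH in that order, and the adult liver makes little of it on a normal diet because dietary protein keeps PHGDH low.

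The letters TGATGNAA, on either strand, are the core of the C/EBP-ATF response element to which ATF4 binds together with a C/EBP partner. Windows of 300 bases around the gene start, from RefSeq on the rat build GRCr8, were at hand for 9 of the 10 genes, Atf3 being without one. Gdf15 had 2 windows and the others 1. Counts of members and lists are of genes, while the shares beside them are of windows. Trib3 was the only 1 of these 9 whose window held the letters, against 3.98% of all 33469 windows. The 250 bases before the start of Trib3 (chr3:161275534-161275783, minus strand) are shown because the gene was the only member with a match, with the match in capitals. It began 21 bases before the start and read on the opposite strand.
Trib3: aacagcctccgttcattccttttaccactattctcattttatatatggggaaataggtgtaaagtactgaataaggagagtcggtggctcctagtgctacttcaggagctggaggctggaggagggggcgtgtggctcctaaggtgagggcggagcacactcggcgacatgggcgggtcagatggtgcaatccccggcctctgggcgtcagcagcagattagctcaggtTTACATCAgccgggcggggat
A match is a description of letters and not a binding site. A window without a match does not show that the gene lacks a site, because only these exact letters in 300 bases were searched. For comparison, 7 further genes described below also held it, whether or not they passed a test, and their 30 bases around the match are shown to set the letters side by side. These were Nupr1 (chr1:190645938-190645967), Slc1a4 (chr14:98761779-98761808), Tars1 (chr2:62114811-62114840), Iars1 (chr17:15193658-15193687), Pycr1 (chr10:106420925-106420954) and Fgf21 (chr1:105221501-105221530), all on the minus strand, and Chac1 (chr3:126795953-126795982) on the plus strand.
Nupr1: aaaaggccagaTTGCATCAgacagggcttg
Slc1a4: cgcctccagcgTTGCATCAtccagccagca
Tars1: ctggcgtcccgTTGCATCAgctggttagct
Iars1: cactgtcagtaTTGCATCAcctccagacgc
Pycr1: ggtcctgtgtaTGATGCAAtgtacaaggct
Fgf21: agacccccccaTTGCATCAttcgtccaggc
Chac1: cttctccgccgTTGCATCActcctgctagg
The same letters lay in the windows of 7 of 15 aminoacyl-tRNA synthetase genes. The palindrome TGACGTCA, the cAMP response element, was in 1.83% of all windows and in none of the windows of the 9 members.

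Intensities are given as log2 of the deposited value plus 1, and a change is the rotenone mean minus the control mean of the same day, with its standard error after ±. A gene is said to have risen or fallen when its p-value from limma, adjusted by Benjamini-Hochberg over all 68842 transcript clusters, was below 0.05. The median negative control probe set, a measure of background, lay between 5.01 and 5.43 on the 24 arrays. Array medians before the log lay between 28.9 and 35.6, and livers of a group correlated at 0.990 to 0.996 over the brighter transcript clusters. The number of arrays limits the precision. Rotenone day 14 replicate 1 stood apart from its group on the first principal component, at 27.1 against 48.8 to 56.7 for the other 3, so day 14 was also tested without it. Among the genes named below, the day 14 call of Nupr1 was the only 1 to end. Of 10 hepatocyte markers checked against the label liver, 9 were found and none of these lay below the median negative control probe set on all arrays. In whole liver, fewer cells of a type and less RNA per cell cannot be told apart.

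No member passed the test on day 1 or day 3, when 9.41% and 6.64% of all 22093 genes did. On day 14, 2 of the 10 members, Psat1 and Asns, rose and none fell, where 9.31% of all genes passed, 5.98% upwards and 3.33% downwards. At an unadjusted p below 0.05, 1 member passed on day 1, 1 on day 3 (Trib3 on both days) and 7 on day 14, beside 24.4%, 20.8% and 23.6% of all genes. All 10 changes were positive on day 14, against 5 on day 1 and 4 on day 3. The median change of the 10 was 0.02 on day 1, -0.03 on day 3 and 0.40 on day 14, while the median over all genes lay at -0.03, 0.03 and 0.01.

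**Figure D1:**
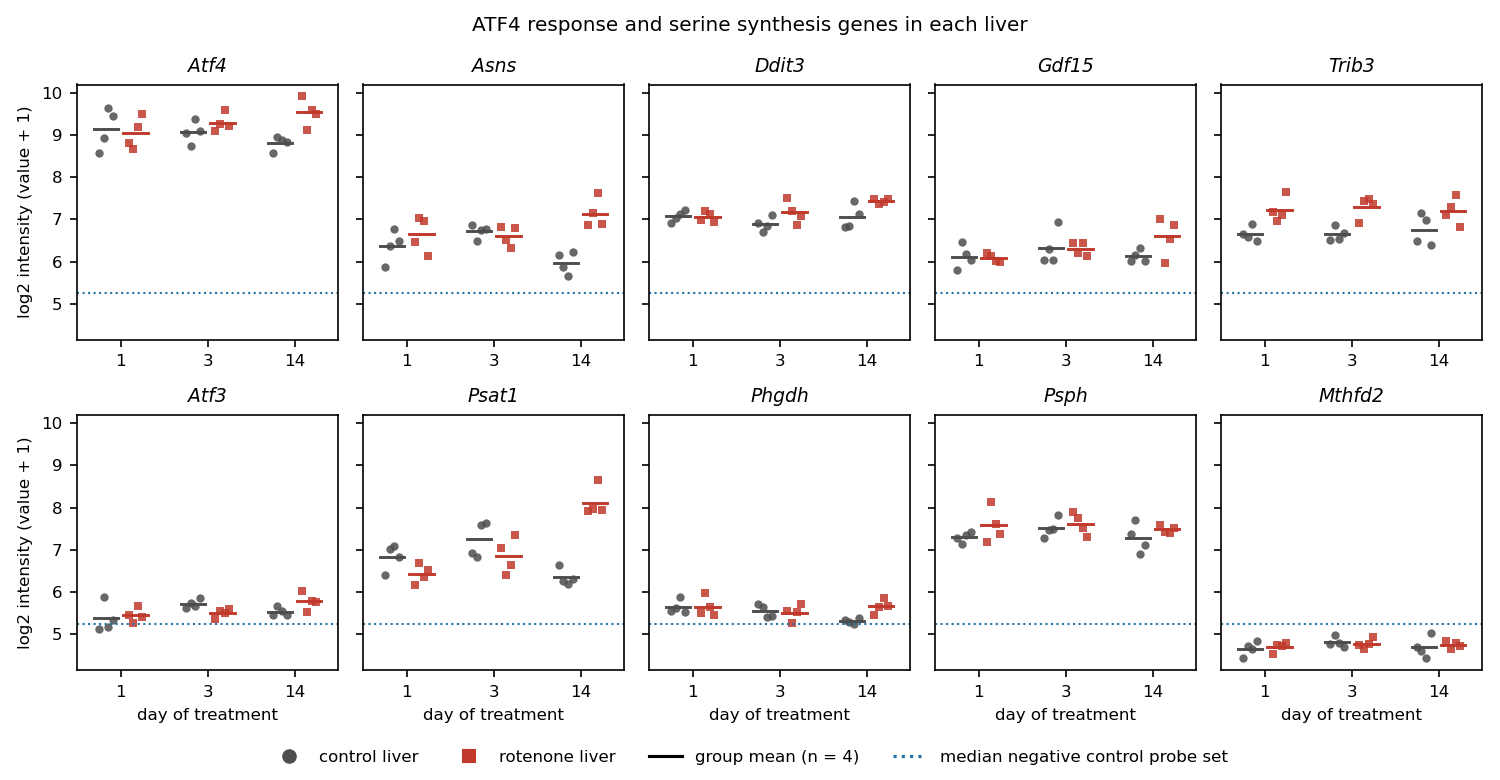
Log2 intensity (vertical axis) of the 10 genes in each of the 24 livers by day of treatment (horizontal axis), with circles for control livers, squares for rotenone livers, bars for group means (n = 4) and a dotted line at the median negative control probe set. The 4 rotenone livers of day 14 lie at 7.91 to 8.65 for Psat1, above all other livers, and all 24 livers lie below the line for Mthfd2.

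Atf4, the transcription factor at the centre of the response, was higher in rotenone than in control livers of day 14, by a margin that did not pass the test. Its log2 intensity on day 14 was 9.92, 9.11, 9.60 and 9.51 in rotenone livers and 8.57, 8.95, 8.88 and 8.83 in controls. The groups did not overlap, with every rotenone liver above every control, as held for 9.47% of all genes on that day. The change of 0.73 ± 0.22 (95% confidence interval 0.28 to 1.18) had an adjusted p of 0.0572 and so did not pass. Rotenone day 14 replicate 1 was the highest of these livers, and without it the change was 0.60 (adjusted p = 0.154). Over the 34 alternatives tried the adjusted p ranged from 0.024 to 0.154, and 10 of them put Atf4 past the threshold. On day 1 the 4 control livers spanned 8.59 to 9.64 and the rotenone livers 8.66 to 9.51, and the change was -0.11 ± 0.22 (adjusted p = 0.850). On day 3 it was 0.22 ± 0.22 (adjusted p = 0.737), and the effect on day 14 was not shown to differ from that on day 1 (difference 0.84 ± 0.31, adjusted p = 0.262).

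Asns, asparagine synthetase, which makes asparagine from aspartate and glutamine and is a classical ATF4 target, rose 2.24-fold on day 14. The gene lies at chr4:36752061-36769970 of GRCr8. Its log2 intensity was 6.87, 7.16, 7.63 and 6.89 in rotenone livers and 6.15, 5.86, 5.67 and 6.22 in controls. All rotenone livers lay above all controls of that day, and the change was 1.16 ± 0.21 (adjusted p = 0.00179). Without rotenone day 14 replicate 1 it was 1.25 (adjusted p = 0.00161). On days 1 and 3 the groups overlapped, with changes of 0.27 ± 0.21 (adjusted p = 0.570) and -0.11 ± 0.21 (adjusted p = 0.896). The F test that asked whether the Asns effect depended on the day did not pass (adjusted p = 0.0961).

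For Asns, controls of day 14 lay 0.74 ± 0.21 below those of day 3 (adjusted p = 0.384), a difference that did not pass. Rotenone livers of day 14 lay 0.48 ± 0.21 above those of day 1 (adjusted p = 0.291) and 0.53 ± 0.21 above those of day 3 (adjusted p = 0.486). Set against the mean of all 3 control groups, a comparison added after the values were seen, Asns still rose, by 0.78 ± 0.17 (adjusted p = 0.00463). In that comparison 16.6% of all genes passed, and 4 of the 10 members did, Asns, Psat1, Ddit3 (0.43 ± 0.11, adjusted p = 0.0156) and Trib3 (0.51 ± 0.15, adjusted p = 0.0383).

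Trib3 encodes a pseudokinase that binds AKT and, as a target of ATF4 and CHOP, dampens both. Its log2 intensity on day 1 was 7.19, 6.97, 7.11 and 7.65 in rotenone livers and 6.65, 6.58, 6.90 and 6.49 in controls. On day 3 it was 6.92, 7.43, 7.49 and 7.37 against 6.53, 6.88, 6.54 and 6.69. All rotenone livers lay above all controls on both days, as did 10.4% of all genes on day 1 and 9.27% on day 3. On day 14, with 7.10, 7.29, 7.58 and 6.82 against 6.49, 7.16, 6.99 and 6.41, the groups overlapped. The changes were 0.57 ± 0.19 (adjusted p = 0.0851), 0.65 ± 0.19 (adjusted p = 0.0591) and 0.43 ± 0.19 (adjusted p = 0.214), so that no single day passed. The average over the 3 days, a contrast added after the values were seen, passed at 0.55 ± 0.11 (adjusted p = 0.000962). In that average 21% of all genes passed, and 2 members did, Trib3 and Asns (0.44 ± 0.12, adjusted p = 0.0186).

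Ddit3, which encodes CHOP, a transcription factor that follows ATF4 and promotes cell death under lasting stress, did not pass on any day. On day 14 the rotenone livers spanned 7.37 to 7.49 and the controls 6.82 to 7.45, and the change was 0.37 ± 0.14 (95% confidence interval 0.09 to 0.65, adjusted p = 0.131). Gdf15, a secreted hormone that lowers food intake through a receptor in the brainstem, had a change of 0.47 ± 0.20 on day 14 (95% confidence interval 0.06 to 0.89, adjusted p = 0.206). Rotenone livers spanned 5.97 to 7.01 and controls 6.01 to 6.32, so that 3 rotenone livers lay above all controls and rotenone day 14 replicate 2 below them. On days 1 and 3 the changes of Gdf15 were -0.04 and -0.02, each ± 0.20.

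Atf3, an immediate stress factor induced by ATF4 in cultured cells, stayed near background. It lay below the median negative control probe set on 3 of 24 arrays, and all its values lay between 5.12 and 6.03. On day 3 the 4 rotenone livers, at 5.36 to 5.61, lay below all controls, of which the lowest also rounded to 5.61, as held for 7.41% of all genes, with a change of -0.21 ± 0.14 (adjusted p = 0.556). On day 14 the change was 0.25 ± 0.14 (adjusted p = 0.403).

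Psat1, phosphoserine aminotransferase and the middle enzyme of serine synthesis, gave the largest change among the 10 members on day 14, a rise of 3.41-fold. The gene lies at chr1:222623553-222646187 of GRCr8. Its log2 intensity was 7.91, 7.97, 8.65 and 7.95 in rotenone livers and 6.63, 6.27, 6.20 and 6.31 in controls. The lowest rotenone liver of day 14 lay above the highest liver of every other group, which was a day 3 control at 7.64. The change was 1.77 ± 0.22 (95% confidence interval 1.31 to 2.23, adjusted p = 3.25e-05), and 1.84 (adjusted p = 4.15e-05) without rotenone day 14 replicate 1.

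On days 1 and 3 Psat1 did not pass, with changes of -0.40 ± 0.22 (adjusted p = 0.376) and -0.39 ± 0.22 (adjusted p = 0.460). It was the only member whose effect differed among the 3 days (F test, adjusted p = 0.00107), where 1.41% of all genes passed. The effect on day 14 exceeded that on day 1 by 2.17 ± 0.31 (adjusted p = 0.00115) and that on day 3 by 2.16 ± 0.31 (adjusted p = 0.0101). Of all genes, 2.17% passed the first of these differences and 0.0317% the second. Between days 3 and 1, where 0.253% of all genes passed, no member did, and the Psat1 effects differed by 0.01 ± 0.31 (adjusted p = 0.996).

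Control livers of day 14 lay 0.49 ± 0.22 below those of day 1 for Psat1 (adjusted p = 0.865) and 0.90 ± 0.22 below those of day 3 (adjusted p = 0.189). Between controls of day 14 and day 1 no member passed in limma, where 0.177% of all genes passed, and 2 did at an unadjusted p below 0.05 (Psat1 and Phgdh), beside 6.03% of all genes. Among rotenone livers alone, in comparisons added after the values were seen, Psat1 on day 14 exceeded day 1 by 1.69 ± 0.22 (adjusted p = 6.69e-05) and day 3 by 1.26 ± 0.22 (adjusted p = 0.0135). In these 7.37% and 0.502% of all genes passed, and Psat1 was the 1 member that did. Against the mean of the 3 control groups Psat1 rose by 1.31 ± 0.18 (adjusted p = 3.45e-05).

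Phgdh, the first and committed enzyme of serine synthesis, lay close to background, below the median negative control probe set on 2 of 24 arrays. On day 14 it read 5.46, 5.65, 5.87 and 5.68 in rotenone livers and 5.34, 5.28, 5.25 and 5.39 in controls. The groups did not overlap, but the change of 0.35 ± 0.13 did not pass (adjusted p = 0.126), and rotenone livers of day 14 differed from those of day 1 by 0.02 ± 0.13 (adjusted p = 0.970). Psph, the phosphatase of the last step, had changes of 0.27, 0.10 and 0.20 on days 1, 3 and 14, each ± 0.18 (adjusted p = 0.494, 0.888 and 0.679), with intervals that reached 0.65, 0.48 and 0.58. Mthfd2, a mitochondrial folate enzyme that many ATF4 studies in tumour cells use as a marker, lay below the median negative control probe set on all 24 arrays, so its changes of 0.04, -0.04 and 0.06 are changes of a signal at background. Of the 3 enzymes of the route, Psat1 was the 1 whose rise passed the threshold. Whether the changes of its neighbours differed from it was not tested.

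**Figure D2:**
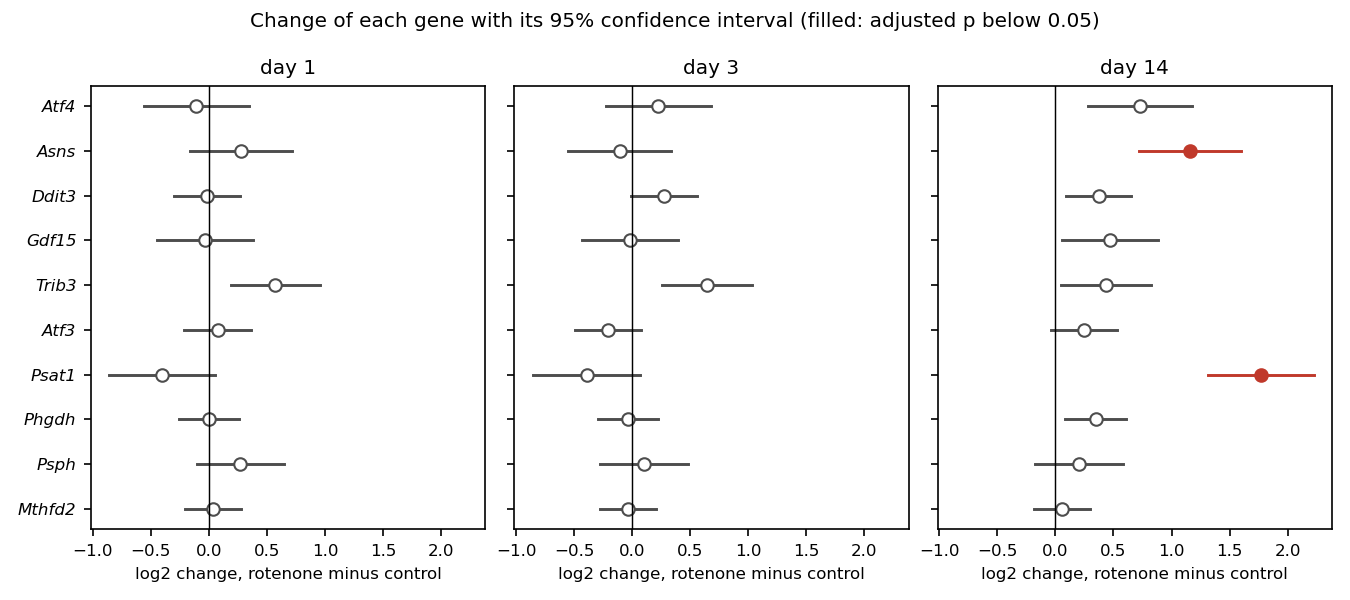
Log2 change of each of the 10 genes (horizontal axis, rotenone minus control) on days 1, 3 and 14, with bars for the 95% confidence interval and filled points where the adjusted p was below 0.05. On day 14 Psat1 stands at 1.77 and Asns at 1.16, and no point is filled on days 1 and 3.

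Markers of the cell types of the liver were set beside these results. On day 14 the summed intensity of 11 macrophage markers spanned 11062 to 17745 in rotenone livers and 21054 to 30780 in controls, without overlap, and 3 of the 11 fell. The sum of 7 stellate cell markers spanned 4932 to 8076 against 10691 to 12560, and 3 of 7 fell. On day 3 it spanned 5801 to 8330 against 11789 to 15595, and 3 of 7 fell there too. Of 8 sinusoidal endothelial markers 1 rose on day 14, with sums of 30381 to 41392 against 26114 to 34689. Cholangiocyte markers (6) summed to 652 to 1116 against 578 to 667, with 1 risen, and the 9 hepatocyte markers to 3730580 to 3809030 against 3818300 to 3890400, with 1 fallen. On day 1, 5 of 8 sinusoidal endothelial and 3 of 11 macrophage markers rose. The day 1 sums overlapped. Endothelial sums spanned 27132.6 to 48319.7 in rotenone livers and 19434.5 to 29613.8 in controls. Macrophage sums spanned 26743.3 to 38689 against 15820.3 to 32099.1. Of all genes, 5.69% rose on day 1, 3.11% fell on day 3, and 5.98% rose and 3.33% fell on day 14. No marker was at 0, and of the 7 leukocyte markers S100a8 and Mpo lay below background on all arrays. The part of these shifts in the changes of Psat1 and Asns was not tested.

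For the members whose group means spanned at least 1 on the log2 scale, the genes with the most similar pattern were looked up among 11046 genes at or above the median mean. The measure was Pearson's r over the 24 livers, which share the treatment groups, and is a description. Psat1 was most like Cmip (r = 0.841), Acat2l1 (r = 0.83) and Acat2 (r = 0.809), the last a cytosolic thiolase of sterol synthesis. Acat2 and Acat2l1 are near copies whose probes may share signal. Asns was most like Plin3-ps1 (r = 0.794), Myo1c (r = 0.776) and Ppp1r14b (r = 0.772), and the first of these may carry signal of Plin3.

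Around the 10 members, 8 lists of 91 genes were examined, of which 85 genes were found. On day 1, 9 of the 85 rose and 12 fell, beside 5.69% and 3.73% of all genes. On day 3, 5 rose and 5 fell, beside 3.53% and 3.11%, and on day 14, 12 rose and 9 fell, beside 5.98% and 3.33%. The lists follow in the order of the pathway.

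Of 9 genes for eIF2 kinases, their relay and the phosphatase subunits, 2 rose on day 1, 2 on day 3 and none on day 14, and none fell. Both were parts of the mitochondrial relay described in human cells, in which DELE1 leaves damaged mitochondria and activates the kinase HRI, the product of Eif2ak1. Oma1, the other gene of this relay in the list, did not pass on any day. Its means on days 1, 3 and 14 were 7.78, 7.97 and 7.94 in rotenone livers and 8.04, 8.15 and 8.14 in controls. Dele1 read 10.54, 10.88, 10.79 and 11.01 in rotenone livers of day 1 and 9.95, 10.06, 10.06 and 10.15 in controls, without overlap. It rose by 0.75 ± 0.14 on day 1 (adjusted p = 0.00197) and 0.93 ± 0.14 on day 3 (adjusted p = 0.000320), and on day 14 the change was 0.44 ± 0.14 (adjusted p = 0.0819). Eif2ak1 rose by 0.50 ± 0.09 (adjusted p = 0.00189) and 0.61 ± 0.09 (adjusted p = 0.000329), with 0.27 ± 0.09 on day 14 (adjusted p = 0.102). For neither gene was the effect on day 14 shown to differ from that on day 3 (adjusted p = 0.606 and 0.577).

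Among 12 transcription factors and regulators next to ATF4, 1 rose on day 1, 1 on day 3, and 3 rose and 2 fell on day 14. Atf5, a factor of the mitochondrial unfolded protein response, rose by 1.15 ± 0.15 on day 1 (adjusted p = 6.19e-05) and lay lower on day 14, at -0.55 ± 0.15 (adjusted p = 0.0405). The effect on day 14 lay 1.70 ± 0.21 below that on day 1 (adjusted p = 0.000344). The fall on day 14 did not pass when control day 14 replicate 2, 3 or 4 or rotenone day 14 replicate 2 or 4 was left out, with an adjusted p of up to 0.138. Without rotenone day 14 replicate 4, at 8.68 against 9.40 to 9.60 in the other 3, the change was -0.33. Sesn2, a leucine sensor that restrains mTORC1, fell by 2.16 ± 0.36 on day 14 (adjusted p = 0.000697), to 9.74, 8.83, 8.72 and 9.06 against 11.39, 11.57, 11.15 and 10.87 in controls (-2.38 without rotenone day 14 replicate 1). On days 1 and 3 the Sesn2 changes of -0.84 and -1.05 did not pass, and its effect was not shown to differ between days. Sesn2 is commonly listed as raised by ATF4, and its direction on day 14 was opposite to that of Asns and Psat1.

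Eif4ebp1, an inhibitor of cap-dependent translation, rose on day 3 (0.62 ± 0.10, adjusted p = 0.000773) and day 14 (0.56 ± 0.10, adjusted p = 0.00162). Nupr1, a stress-induced chromatin protein, rose by 1.41 ± 0.35 on day 14 (adjusted p = 0.0194). That call ended without rotenone day 14 replicate 1 (1.21, adjusted p = 0.0617), and also without rotenone day 14 replicate 2 or control day 14 replicate 1 or 4. Fgf21 and Chac1, known ATF4 targets named here after their values were seen, did not pass. Their changes on day 14 were 0.17 ± 0.22 (adjusted p = 0.803) and -0.13 ± 0.25 (adjusted p = 0.891), with both signals near background. For Chac1, control day 14 replicate 2 stood at 6.66, against 5.26 to 5.37 in the other controls of that day. Rotenone livers of day 14 spanned 5.18 to 5.77 for this gene.

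Of 10 amino acid transporter genes, 3 rose and 1 fell on day 1, 1 rose on day 3, and 3 rose and 1 fell on day 14. Slc7a5, the light chain of the LAT1 carrier of large neutral amino acids, rose by 1.94 ± 0.29 on day 14 (adjusted p = 0.000276). Its log2 intensity was 9.02, 9.82, 8.82 and 9.84 in rotenone livers and 7.75, 7.08, 7.48 and 7.44 in controls, with no overlap. Its partner chain Slc3a2 rose by 0.47 ± 0.13 on day 3 (adjusted p = 0.0447), a call that ended when any 1 of 16 of the 24 livers was left out. Slc3a2 also rose by 1.03 ± 0.13 on day 1 (adjusted p = 3.27e-05) and 0.95 ± 0.13 on day 14 (adjusted p = 8.69e-05). These 2 changes were added after the values were seen.

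Slc6a9, a glycine carrier, rose by 2.32 ± 0.29 on day 1 (adjusted p = 4.25e-05) and by 1.25 ± 0.29 on day 14 (adjusted p = 0.0137), the latter not without control day 14 replicate 4 (adjusted p = 0.0623), and at 1.09 (adjusted p = 0.0444) without rotenone day 14 replicate 1. On day 3 the Slc6a9 change of 1.04 did not pass, with rotenone livers at 10.19 to 11.45 and controls at 9.53 to 10.21. Slc1a4, a carrier of serine and other small neutral amino acids, rose on day 1 (1.16 ± 0.30, adjusted p = 0.0268). Slc43a1, a carrier of branched-chain amino acids, fell on day 1 (-0.72 ± 0.19, adjusted p = 0.0318) and day 14 (-0.90 ± 0.19, adjusted p = 0.00706). The day 1 call of Slc1a4 ended without control day 1 replicate 1, 2 or 3 or rotenone day 1 replicate 1 or 3. That of Slc43a1 ended without control day 1 replicate 1, 2 or 4 or rotenone day 1 replicate 2, 3 or 4.

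Among 16 aminoacyl-tRNA synthetases, which charge tRNAs, 2 rose on day 1, 1 fell on day 3, and 1 rose and 1 fell on day 14. Sars1, for serine, rose by 0.80 ± 0.16 on day 1 (adjusted p = 0.00304) and 0.71 ± 0.16 on day 14 (adjusted p = 0.00917). Iars1, for isoleucine, rose by 0.47 ± 0.11 on day 1 (adjusted p = 0.0140), but not without control day 1 replicate 1 or 2. Tars1, for threonine, fell by 1.02 ± 0.21 on day 3 (adjusted p = 0.00549) and 0.98 ± 0.21 on day 14 (adjusted p = 0.00604). The median change of the 16 was 0.22, -0.06 and 0.18 on the 3 days.

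Of 10 enzymes of other amino acid synthesis, 2 fell on day 1 and 2 rose on day 14. Cth, which makes cysteine from cystathionine, fell by 1.14 ± 0.16 on day 1 (adjusted p = 9.3e-05) and lay at 0.22 and 0.17 on days 3 and 14. Its effect on day 14 lay 1.32 ± 0.22 above that on day 1 (adjusted p = 0.00397). Pycr1, the last enzyme of proline synthesis, fell by 0.45 ± 0.11 on day 1 (adjusted p = 0.0198), a call that ended without control day 1 replicate 1, 3 or 4 or rotenone day 1 replicate 4. Its signal lay near background, at 5.16 to 5.34 in rotenone livers of day 1 and 5.53 to 5.81 in controls. Gpt2, a mitochondrial alanine aminotransferase, and Glul, glutamine synthetase, rose on day 14 by 0.62 ± 0.16 (adjusted p = 0.0281) and 0.59 ± 0.15 (adjusted p = 0.0212). The call of Gpt2 ended without control day 14 replicate 2 or 3 or rotenone day 14 replicate 2, 3 or 4, and that of Glul without control day 14 replicate 2 or rotenone day 14 replicate 3.

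Folate one-carbon enzymes take the carbon of serine further. Of 9 such genes, 3 fell on day 1, 2 fell on day 3, and 2 rose and 2 fell on day 14. On day 14 the 2 that rose encode enzymes of the cytosol. Mthfd1, the cytosolic trifunctional folate enzyme, rose by 1.85 ± 0.27 (adjusted p = 0.000176) to 13.37, 14.48, 14.88 and 14.94 against 12.47, 12.33, 13.09 and 12.38. Rotenone day 14 replicate 1 was the lowest of its group, though above all controls, and without it the change was 2.20. Shmt1, cytosolic serine hydroxymethyltransferase, rose by 0.81 ± 0.12 (adjusted p = 0.000258).

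The 2 that fell on day 14 encode enzymes of mitochondria. Aldh1l2, mitochondrial 10-formyltetrahydrofolate dehydrogenase, fell by 1.46 ± 0.31 on day 3 (adjusted p = 0.00882) and 2.24 ± 0.31 on day 14 (adjusted p = 0.000134). It read 11.22, 9.85, 9.83 and 9.30 in rotenone livers of day 14 and 12.35, 11.87, 12.82 and 12.10 in controls, without overlap, and the change was -2.63 without replicate 1. Shmt2, mitochondrial serine hydroxymethyltransferase, fell by 0.88 ± 0.18 on day 1 (adjusted p = 0.00439) and 0.65 ± 0.18 on day 14 (adjusted p = 0.0398), the latter not without control day 14 replicate 1 or 4 or rotenone day 14 replicate 2, 3 or 4. Aldh1l1, the cytosolic relative of Aldh1l2, fell 3.49-fold on day 1 (adjusted p = 0.000117) and lay at 0.17 ± 0.25 on day 14. Tyms, thymidylate synthase, fell by 0.64 ± 0.14 on day 3 (adjusted p = 0.00826). Tyms was also among the 3 that fell on day 1, at 8.41 to 8.54 in rotenone livers and 9.11 to 9.61 in controls, without overlap.

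**Figure D3:**
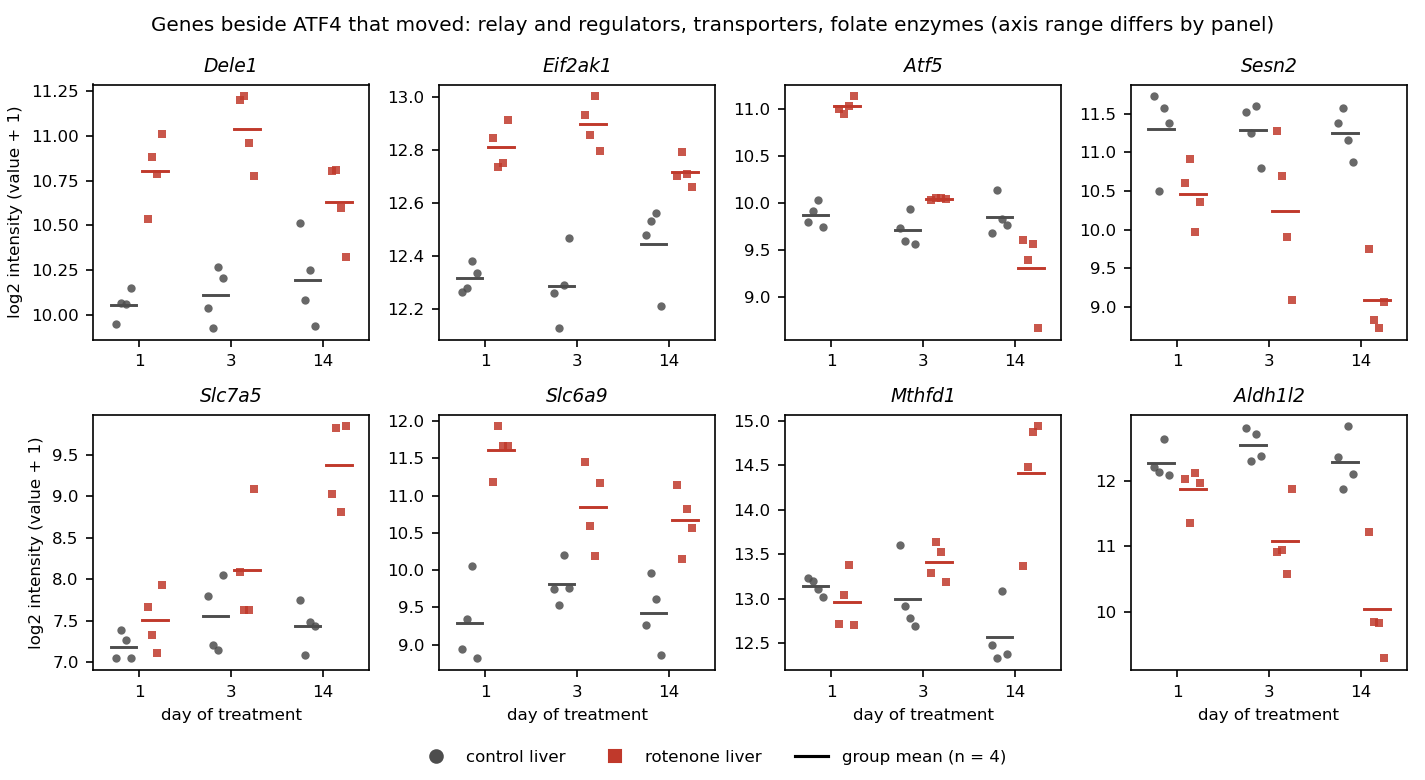
Log2 intensity (vertical axis, range set per panel) of 8 genes beside the members in each liver by day of treatment (horizontal axis), with circles for control livers, squares for rotenone livers and bars for group means (n = 4). Dele1 stands above the controls on days 1 and 3, Eif2ak1 on days 1, 3 and 14, and Slc7a5 and Mthfd1 on day 14. Sesn2 stands below the controls on day 14 and Aldh1l2 on days 3 and 14.

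Of 10 genes that use serine or glycine, 4 fell on day 1 (Gcsh, Amt, Dld and Gnmt), 2 on day 3 and 2 on day 14, and none rose. Dld, a subunit shared by the glycine cleavage system and the 2-oxo acid dehydrogenases, fell by 0.70 ± 0.10 on day 1 (adjusted p = 0.000195) and by 0.42 ± 0.10 on day 3 (adjusted p = 0.0253), the latter not without control day 3 replicate 1 or 2 or rotenone day 3 replicate 1, 2 or 4. Amt, the aminomethyltransferase of glycine cleavage, fell by 0.55 ± 0.13 on day 3 (adjusted p = 0.0137; not without rotenone day 3 replicate 1 or 2) and 0.53 ± 0.13 on day 14 (adjusted p = 0.0145). Its day 14 call ended without control day 14 replicate 4 or rotenone day 14 replicate 3 or 4. Srr, serine racemase, on day 14 (-0.47 ± 0.13, adjusted p = 0.0490) and Gnmt, glycine N-methyltransferase, on day 1 (-1.50 ± 0.43, adjusted p = 0.0493) lay at the threshold, and each call ended when any 1 of 19 of the 24 livers was left out.

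Of 9 genes of the other arms of the unfolded protein response, 1 rose and 2 fell on day 1, 1 rose on day 3, and 1 rose and 1 fell on day 14. Creb3l3, a membrane-bound factor of hepatocyte lipid metabolism, rose by 1.51 ± 0.17 on day 1 (adjusted p = 8.2e-06) and 0.77 ± 0.17 on day 3 (adjusted p = 0.00906). Atf6, the sensor of another arm, rose by 0.42 ± 0.10 on day 14 (adjusted p = 0.0120), but not without control day 14 replicate 2. The chaperone gene Hspa5 fell on day 1 (-0.58 ± 0.17, adjusted p = 0.0461), a call that ended when any 1 of 16 livers was left out. Sdf2l1, a cofactor of that chaperone, fell on day 1 (-0.56 ± 0.14, adjusted p = 0.0209; not without control day 1 replicate 3 or 4 or rotenone day 1 replicate 3 or 4). Its fall on day 14 (-0.49 ± 0.14, adjusted p = 0.0483) ended when any 1 of 17 livers was left out.

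**Figure D4:**
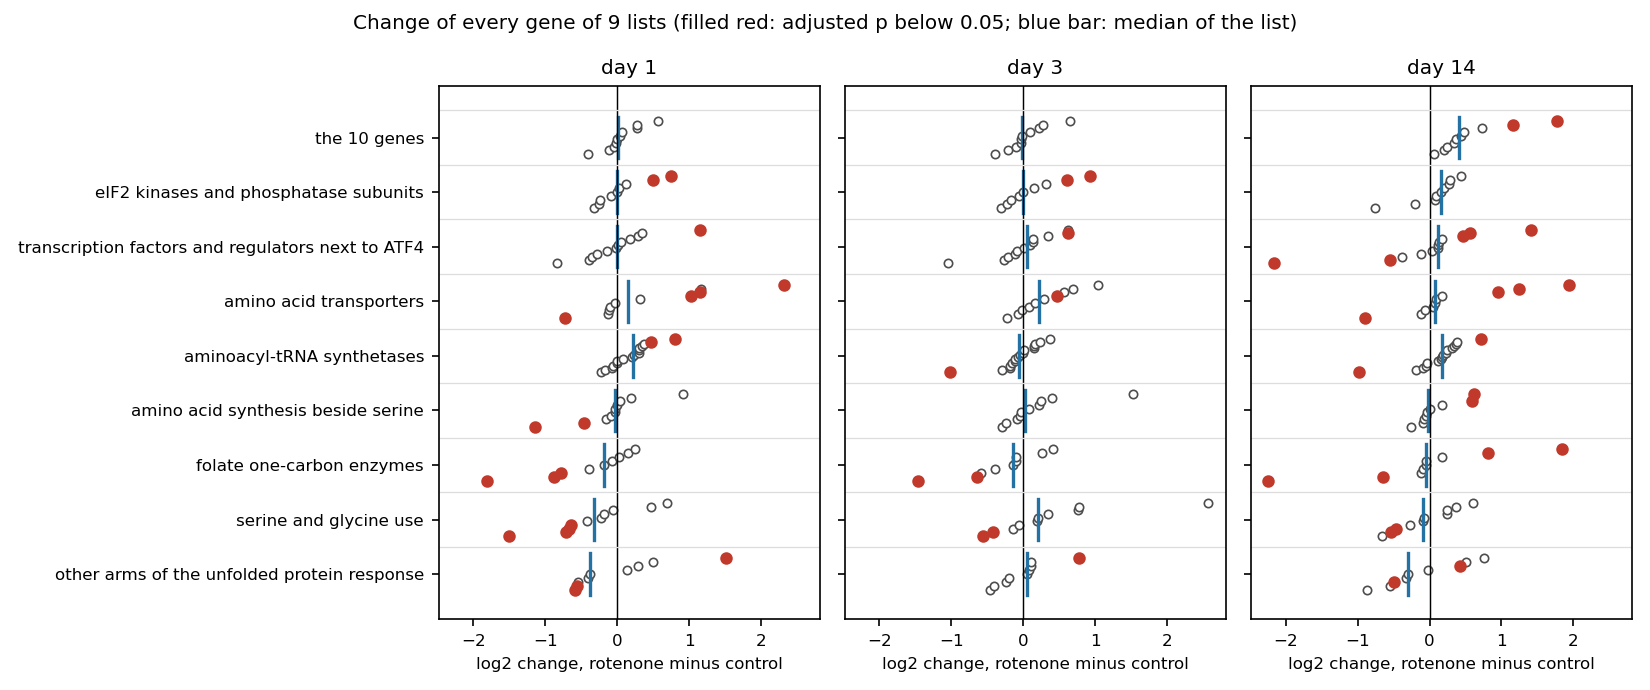
Log2 change (horizontal axis, rotenone minus control) of every gene found of the 10 members and of 8 surrounding lists on days 1, 3 and 14, filled where the adjusted p was below 0.05, with a vertical bar at the median of each list. The median of the 10 genes moves from 0.02 and -0.03 to 0.40 on day 14, and changes past the threshold lie on both sides of 0 in 5 of the 8 lists on that day.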

How the data were processed

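RNA of 24 rat livers was measured on the Rat Transcriptome Array 1.0, 1 array per animal. The authors corrected probe intensities for GC content (GCCN), transformed signal space (SST) and normalized and summarised the arrays with RMA, and deposited intensity on a linear scale for 70580 probe sets. Software version and genome build of that step are not given in the sources used here. After 1738 control probe sets were left out, log2(intensity + 1) of 68842 transcript clusters was fitted with limma 3.58.1 in R 4.3.3 as 6 group means of 4 livers, with day-matched contrasts and Benjamini-Hochberg adjustment over all clusters at 0.05. Of the clusters, 23446 had 1 gene symbol, 505 several and 44891 none; the cluster with the highest mean stood for each of 22093 genes. The fit was tested on simulated data.

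The members and lists were chosen with earlier results of these data known. Named were all members and, from each list and day, the up to 2 largest rises and up to 2 largest falls past the threshold; Slc3a2, Fgf21 and Chac1 were added after their values were seen. The average over days, the comparison with 3 control groups and those among rotenone livers were also added then. Alternatives covered the fit, normalization, filters, pseudocount, replicate block and each liver left out. In the filter after the study's methods, the joining of treatment and interaction terms by "or" was an assumption. Promoter windows came from RefSeq (GRCr8).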

Additional observations from a re-analysis of the deposited data

Results flagged for a closer look

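Of 60 groups of 4 livers tested for the 10 members, 1 held a liver far from the others, and of 264 groups over all 44 named genes 9 did; chance flags about 1 in 20 groups. Psat1 in rotenone day 14 replicate 3 was 8.65, against 7.91 to 7.97 in the other 3 livers. The other 8 were Slc1a4 in control day 14 replicate 1 (7.30), Iars1 in rotenone day 1 replicate 1 (11.4), Tars1 in rotenone day 1 replicate 3 (12.8), Glul in rotenone day 14 replicate 3 (17.3), Shmt2 in rotenone day 1 replicate 1 (12.0), Tyms in control day 1 replicate 4 (9.61), Amt in rotenone day 3 replicate 3 (10.8) and Chac1 in control day 14 replicate 2 (6.66), all on the log2 scale.

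Effects differed between days in 2 of 30 tests for the members and 10 of 132 for all named genes. Most named genes had been picked as the largest calls of a day, so the second count is over selected genes. Over all genes, 2.17% differed between days 14 and 1, 0.0317% between days 14 and 3 and 0.253% between days 3 and 1. For Psat1 the effect on day 14 exceeded that on day 3 by 2.16 and that on day 1 by 2.17. For Cth the effects on days 3 and 14 lay 1.36 and 1.32 above that on day 1. Day 14 exceeded day 1 by 2.02 for Mthfd1, 1.97 for Aldh1l1 and 0.61 for Dld. The difference of day 14 from day 1 was -1.70 for Atf5, -1.84 for Aldh1l2 and -1.01 for Creb3l3.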

How the results depend on the processing

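Psat1 on day 14 passed under all alternatives tried, and Asns under all but the filter after the study's methods. That filter left 1 member on day 14 (Psat1) and 5, 2 and 2 genes of the 8 lists on days 1, 3 and 14. On day 1, 1 member (Trib3) passed with only clusters at or above the median mean, with array-median centring and with the mean over all clusters of a symbol. On day 3, 1 member (Trib3) passed with the same filter on dim clusters, a trended and robust prior, a pseudocount of 32 and the symbol mean. Against the mean of the 3 control groups, 4 members passed on day 14. The effect differed among days for 2 members (Asns and Psat1) with the filter on dim clusters, array weights or the symbol mean. At 1.8-fold or more, 0 members passed in the average over days, and 9, 3 and 9 list genes on days 1, 3 and 14. With only the 8 arrays of a comparison, 6 list genes passed on day 3 and 11 on day 14. With the symbol mean the intensities of the members were unchanged, because each had 1 cluster. What differed for them was the variance prior and the adjustment, set over 22093 genes in place of 68842 transcript clusters. Beyond that, the cause was not tested in any of these. Array-median centring moved the share of rises among called genes from 60.4% to 76.6% on day 1, from 53.1% to 46.3% on day 3 and from 64.2% to 67.4% on day 14, and the median change of all genes on day 1 from -0.03 to 0.06.

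With 1 liver left out, 0 members passed on day 1, 0 to 1 on day 3, 2 to 4 on day 14 and 2 to 3 in the average, and 15 to 22, 7 to 12 and 15 to 22 list genes passed on the 3 days. The 1 on day 3 was Trib3, without control day 14 replicate 2 or 4, rotenone day 1 replicate 4, rotenone day 3 replicate 1 or rotenone day 14 replicate 3 or 4. The 4 on day 14 (Atf4, Asns, Gdf15 and Psat1) passed without rotenone day 14 replicate 2. Atf4 was added without control day 1 replicate 1 or 3 or rotenone day 1 replicate 4, and Ddit3 without control day 14 replicate 3. Atf4 was also added on day 14 with the filter on dim clusters, the trended and robust prior, array weights, the pseudocount of 32 and the symbol mean. The labels name no pairing of livers by replicate number. Deviations of same-numbered livers correlated at -0.11 to 0.17, and 5 of 12 correlated best with their own number. So few pairs can neither show nor exclude a pairing. With the replicate block, 0, 0 and 3 members (Atf4 added) and 20, 10 and 18 list genes passed on days 1, 3 and 14.

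Signs turned only for changes that passed on neither side. With array weights, control livers of day 14 against day 1 gave -0.023 for Gdf15, 0.026 for Psph and -0.00121 for Mthfd2. Quantile normalization gave 0.0195 for Gdf15 and 0.0553 for Phgdh on day 1 and 0.00077 for Ddit3 between those controls. Centring gave 0.075 for Ddit3, 0.055 for Gdf15 and 0.0895 for Phgdh on day 1 and 0.0142 for Ddit3 between the controls, and a pseudocount of 32 gave 0.00033 for Phgdh on day 1. With 1 liver left out, day 1 changes ranged from -0.0114 to 0.24 for Atf3, -0.30 to 0.0525 for Atf4, -0.0664 to 0.0293 for Ddit3, -0.14 to 0.0771 for Gdf15, -0.0404 to 0.099 for Mthfd2 and -0.11 to 0.0756 for Phgdh. Day 3 changes ranged from -0.11 to 0.18 for Gdf15, -0.0912 to 0.0196 for Mthfd2 and -0.0997 to 0.0496 for Phgdh. For Mthfd2 the range was -0.0261 to 0.17 on day 14 and -0.00899 to 0.0554 in the average. Between controls of day 14 and day 1 the ranges were -0.14 to 0.0729 for Ddit3, -0.0955 to 0.12 for Gdf15, -0.078 to 0.12 for Mthfd2, -0.17 to 0.0961 for Psph and -0.0255 to 0.22 for Trib3. Signal near background limits Mthfd2, Phgdh and Atf3 among the members, and Pycr1, Fgf21 and Chac1 among the named list genes.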
